A study of Saccharomyces cerevisiae with 30 samples.

Results

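The comparison described here sets 3 cultures of budding yeast grown for 15 h with liriodenine methiodide (LMT in the labels) against 9 cultures grown for 4 h with the solvent DMSO alone. It uses 12 of the 30 arrays of the series. They were chosen by their labels: the 3 arrays of the 15 h LMT treatment, and the 3 DMSO arrays of each of the 3 experiments that were harvested at 4 h. One of those experiments tested E9591, one tested LMT, and one tested a pair of compounds labelled BIPR and PHEN and is called the BIPR and PHEN experiment below. The comparison asks how cells under long LMT exposure differ from untreated cells in early growth, before glucose has been used up.

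All cultures were Saccharomyces cerevisiae strain S288C, grown at 30 °C in buffered synthetic medium with 2% dextrose and no added amino acids. Compounds or DMSO were added at an optical density (OD600) of 0.2. The 4 h cultures received 0.25% DMSO and were harvested at an OD600 of 0.5, and the 15 h cultures received 2.6 µM LMT and were kept for 4.5 doublings. Every dose in the study was the IC50 of its compound, and each group consists of 3 cultures with 1 array each. The density at which the 15 h cultures were harvested is not given in the sources used here. Compound, exposure time, growth stage and experiment all differ between the 2 sides of this comparison, and their parts in any difference cannot be told apart. In whole cultures, a change of message per cell and a change in the share of cells that carry it cannot be told apart either.

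Budding yeast ferments glucose for as long as it is plentiful, and glucose represses the genes for respiration, for the use of other carbon sources and for storage carbohydrates. As glucose runs down, low-affinity hexose transporters give way to high-affinity ones, the repressed genes are switched on, and a common stress programme rises while genes for making ribosomes fall. Starvation for a nutrient such as zinc, iron, biotin or a good nitrogen source sets off its own smaller set of uptake genes.

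Levels are given as log2(intensity + 1), so that 1 unit is a doubling, and a difference is the mean of the 3 LMT arrays minus the mean of the 9 DMSO arrays with its standard error. A gene was called when its adjusted p was under 0.05 in limma with the experiment as a random block (Benjamini-Hochberg over 5429 genes). An array's floor is the level under which 95% of its probe sets for another yeast species lie. In simulated data of the same layout, 50 genes were changed by each of 0.5, 1, 2 and 4 units. This fit called 11, 35, 47 and 50 of them. It also called 124 of 5229 unchanged genes, more than its threshold allows, and 53 unchanged genes were called at least 2-fold. A stricter fit that treats the 4 group means as the units did not exceed its threshold, with 3 unchanged genes called. It recovered fewer true changes: 1, 3, 31 and 46. Counts are therefore given by both.

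S288C is a haploid strain of the alpha mating type. None of the 5 alpha-cell genes, the 7 a-cell genes and the 7 haploid-specific genes lay under the floor on all 3 arrays of any group, so the floor does not separate the types, and sums of different probe sets are compared here only between groups. The summed intensity of the alpha-cell genes ran from 26465 to 29025 on the LMT arrays and from 43404 to 63041 on the 9 DMSO arrays. The 7 a-cell genes summed to between 771 and 938 on the LMT arrays and to between 1165 and 2468 on the DMSO arrays. Genes of meiosis and sporulation summed to between 2136 and 2536 on the LMT arrays against 904 to 1129 on the DMSO arrays. Replicates lay close together: the SD over genes of the difference between 2 arrays of a group ran from 0.18 to 0.387.

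Of 5429 genes tested, 1918 were called, 35.3% of all. Of these, 1165 (21.5%) were higher under LMT at 15 h and 753 (13.9%) were lower. The stricter fit called 629 higher and 207 lower. The median difference over all tested genes was 0.10. That median moves with the scaling of the arrays, by -0.192 under quantile normalization and by -0.212 when each array is centred on its median. The split then becomes 951 higher and 1181 lower, or 852 higher and 1048 lower, so the balance of rises and falls depends on the scaling.

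Most large changes kept their calls under these choices. Called genes that differed at least 2-fold numbered 986 (18.2%), with 714 higher and 272 lower. That split also depends on the scaling, with 497 higher and 485 lower under quantile normalization and 511 and 467 with centring. All 986 had their 3 LMT arrays outside the range of the 9 DMSO arrays. Over all tested genes, 34.1% had the 3 LMT arrays above all 9 DMSO arrays and 22.5% had them below. Of the 986 genes, 856 kept their call under both other scalings, 749 kept it in the stricter fit and 865 kept it whichever DMSO experiment was left out.

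The 3 DMSO groups differed from each other, and the difference under LMT has to be read against that. The SD over genes of the difference was 0.983 for LMT at 15 h. For a DMSO group against the other DMSO arrays it was 0.318 in the E9591 experiment, 0.539 in the LMT experiment and 0.361 in the BIPR and PHEN experiment. The DMSO cultures of the LMT experiment thus stood farthest from the others, with 298 genes at least 2-fold apart from them, against 68 and 98 genes for the other groups. The range of the 3 DMSO group means was 0.392 for the median gene and at least 2-fold for 463 genes, or 8.53%. Of the 986 genes called with a 2-fold difference, 665 were also at least 2-fold away from the nearest DMSO group mean. Against the same 9 arrays the SD over genes was 1.977 for the 15 h DMSO cultures, 0.909 for E9591 at 15 h and 0.772 for LMT at 4 h. The plot of difference against DMSO range shows where individual genes lie.

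**Figure D1:**
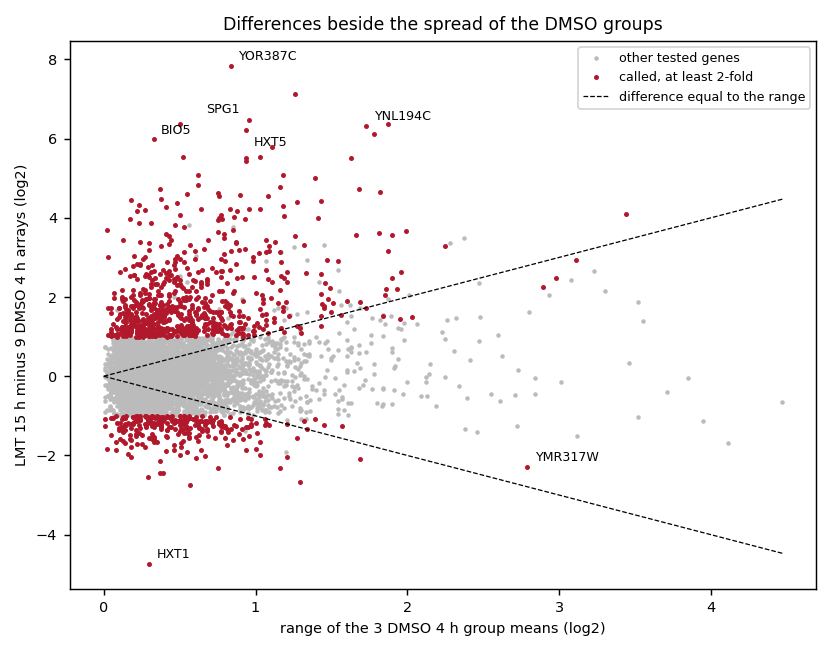
Each point is 1 tested gene: the x axis is the range of the 3 DMSO group means and the y axis the LMT 15 h minus DMSO 4 h difference, both in log2 units, with genes called at least 2-fold in red. The dashed lines mark where the difference equals the range. YOR387C, SPG1, HXT5, BIO5 and HXT1 lie far outside these lines, while YMR317W lies close to them.

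The 15 largest fitted rises were YOR387C, SPG4, SPG1, SPS100, VEL1, YNL194C, HXT5, GAC1, BIO5, NDE2, HSP12, YOL131W, YMR206W, ISF1 and DDR2, which were named among genes whose 3 LMT arrays lay above all 9 DMSO arrays. Without YOL131W, which has only a bound, they ran from 7.84 to 5.44. SPG4 on chromosome XIII, a gene needed for survival in stationary phase at high temperature, read 13.21, 13.29 and 13.39 under LMT against a lowest, median and highest DMSO value of 5.34, 6.36 and 6.99. Its groups were separated by over 6 units, a difference of 7.13 ± 0.67 (adjusted p = 7.56e-06). SPG1 on chromosome VII, another gene of that kind, read 10.74, 11.10 and 11.32 against 3.74, 4.58 and 5.30, with 3 of the 9 DMSO arrays under the floor. It rose by 6.46 ± 0.51 (adjusted p = 2.62e-06). SPS100, a protein of spore wall maturation, rose by 6.37 ± 0.70 from a level that was under the floor on 5 of the 9 DMSO arrays.

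YNL194C encodes a membrane protein of the same family as FMP45, and it rose by 6.32 ± 1.02 (adjusted p = 4.42e-04). YOL131W was under the floor on all 9 DMSO arrays, so that the rise was at least 18.4-fold (adjusted p = 0.0209) and its place among the 15 is not measured. Its call was lost under quantile normalization, without the BIPR and PHEN experiment's DMSO arrays, and without replicate C of that group alone. YMR206W rose by 5.52 ± 0.54, ISF1 by 5.50 ± 0.49 and DDR2, a gene switched on by many stresses, by 5.44 ± 0.64.

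Almost all genes of the stress list rose. Of its 28 general stress and stationary-phase genes, 27 rose and none fell, and 25 rose in the stricter fit. Over all tested genes 21.5% rose. This list, like the others, was chosen with earlier results of these data known, so its count describes the members and tests nothing. Their median difference was 3.08, against 0.10 over all tested genes. HSP12, a small protein that protects membranes, read 13.40, 13.32 and 13.69 under LMT and 6.84, 7.82 and 8.62 (lowest, median, highest) under DMSO, a difference of 5.54 ± 0.64 (adjusted p = 3.67e-05). HSP26, a small heat shock protein, read 14.03, 13.79 and 14.21 against a highest DMSO value of 9.93. CTT1, the cytosolic catalase, read 11.14, 11.27 and 11.40 against 6.63, 7.45 and 7.84, a rise of 3.96 ± 0.33 (adjusted p = 3.78e-06). HSP12 was named by a rule that asks for no overlap. HSP26 and CTT1 also lay above all 9 DMSO arrays, as did 34.1% of all tested genes. Mean levels of CTT1 were 13.93 in 15 h DMSO cultures, 6.57 with E9591 at 15 h and 6.61 with LMT at 4 h. Of these 3 groups the DMSO cultures alone had a high level of CTT1. HSP12 differed from this, with means of 14.49, 12.70 and 13.14 in the same order, and DDR2 had 14.00, 11.91 and 12.09. The list medians in these groups, against the same 4 h arrays, were 4.72, 0.32 and 0.75. HOR7 was the 1 member that was not called (0.10, adjusted p = 0.864).

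Reserve carbohydrate and autophagy genes moved the same way. Of 18 trehalose and glycogen genes, 14 rose and none fell (7 in the stricter fit), with a median of 1.61. That median was 1.22 against the E9591 experiment's DMSO arrays, 2.54 against those of the LMT experiment and 1.22 against those of the BIPR and PHEN experiment. GAC1, which directs a protein phosphatase to glycogen synthase, read 11.07, 11.32 and 11.22 against 3.32, 5.58 and 6.14, a rise of 6.11 ± 0.74 (adjusted p = 5.48e-05). GPH1, glycogen phosphorylase, read 12.86, 12.83 and 12.91 against 7.86, 9.51 and 10.53. PGM2, phosphoglucomutase, rose by 2.58 ± 0.62. GSY1, a glycogen synthase, shows the weight of the reference: its LMT values of 12.74 to 12.85 exceeded all 9 DMSO values, but these ran from 9.83 to 12.38 and the difference of 1.34 was not called (adjusted p = 0.126).

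Of 34 autophagy genes, 27 rose and 1 fell (16 and 0 in the stricter fit), with a median of 1.19. ATG39, the receptor for autophagy of the nucleus, rose by 4.83 ± 0.40 (adjusted p = 3.78e-06), and its LMT values of 11.46 to 11.58 lay above a DMSO range of 6.06 to 7.20. ATG8, the ubiquitin-like protein on autophagosome membranes, read between 11.98 and 12.09 against 9.79, 10.14 and 10.34, a rise of 1.93 ± 0.26. ATG27 was the 1 member that fell, by 0.51 on the log2 scale (adjusted p = 0.0244), and it lost that call in the stricter fit and without the E9591 experiment's DMSO arrays. The list medians by condition show these groups side by side.

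**Figure D2:**
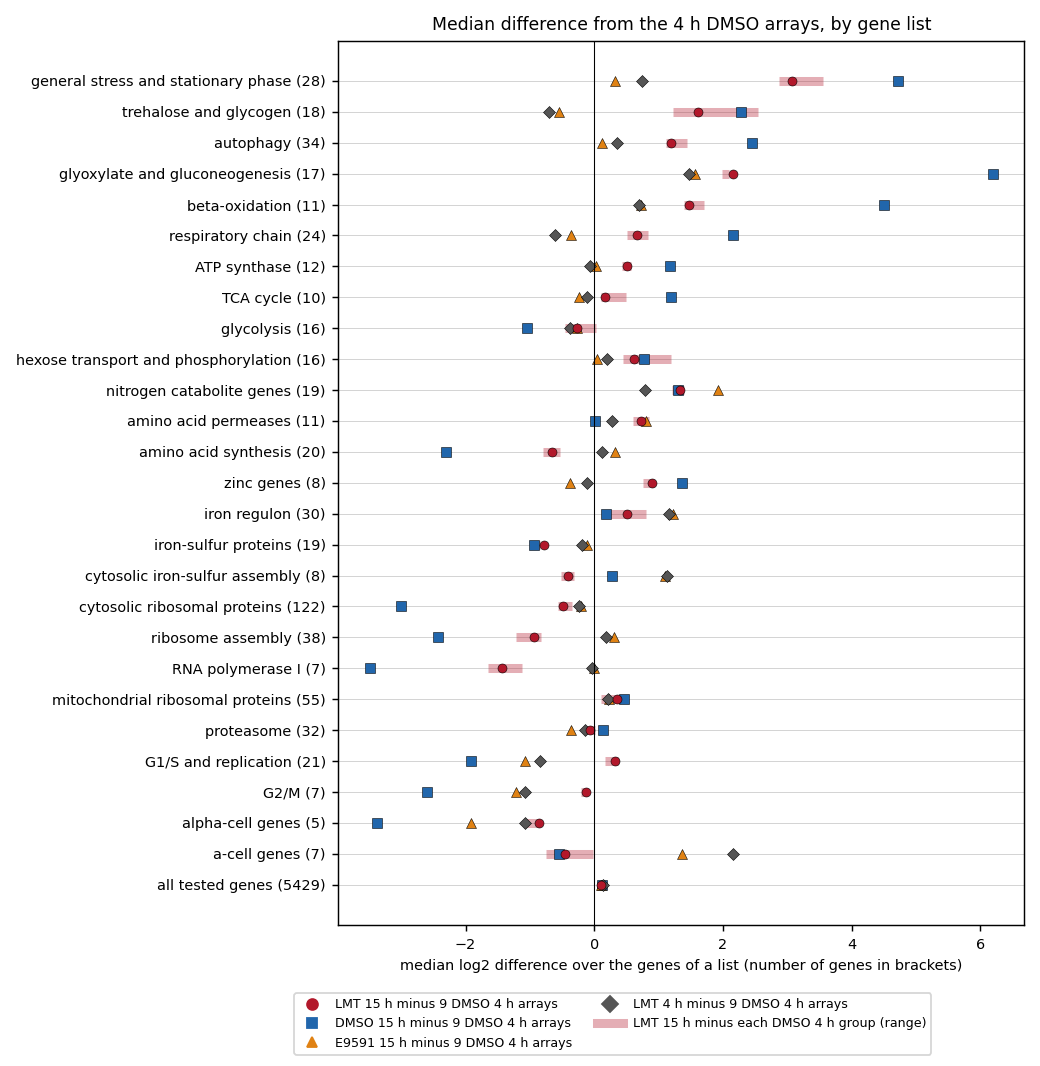
Each line is a gene list and the x axis its median log2 difference from the 9 DMSO arrays at 4 h: red circles LMT at 15 h, blue squares DMSO at 15 h, orange triangles E9591 at 15 h, grey diamonds LMT at 4 h. Pink bars span the LMT 15 h median against each DMSO group. Stress genes sit at 3.08 under LMT at 15 h, 4.72 in 15 h DMSO cultures and 0.32 with E9591 at 15 h, and cytosolic ribosomal proteins at -0.49, -3.00 and -0.20.

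Sugar transport showed a change that was not uniform. Of 16 genes of hexose transport and phosphorylation, 6 rose and 1 fell (4 and 1 in the stricter fit). Among all tested genes, 21.5% rose and 13.9% fell. HXT1 on chromosome VIII, the low-affinity transporter of cells with abundant glucose, read 7.35, 7.23 and 7.55 under LMT against a lowest, median and highest DMSO value of 11.93, 12.04 and 12.40. This was the largest fall of all called genes under the naming rule, -4.73 ± 0.21 (adjusted p = 3.15e-08). The 15 h DMSO cultures had a mean of 7.53 and were not called apart (difference -0.16 ± 0.09, adjusted p = 0.119), whereas E9591 at 15 h had a mean of 13.29 and LMT at 4 h of 13.23. HXT5, a transporter of slowly growing cells, read 12.43, 12.60 and 12.70 against 5.79, 6.54 and 6.89, a rise of 6.21 ± 0.39 (adjusted p = 7.26e-07). Its means were 14.12 in 15 h DMSO cultures, 10.44 with E9591 at 15 h and 9.07 with LMT at 4 h.

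Other genes of glucose use were not called or rose. HXK2, the main hexokinase of glucose-grown cells, read 13.39, 13.19 and 13.47 against 13.44, 13.60 and 14.22, a difference of -0.34 ± 0.36 (adjusted p = 0.497). The same gene averaged 7.61 in the 15 h DMSO cultures. HXT4, a transporter induced at low glucose, differed by 0.31 ± 0.22 from the 4 h DMSO arrays (adjusted p = 0.295) and was 5.43 ± 0.15 higher than in 15 h DMSO cultures. SUC2, invertase, rose from a DMSO range of 10.61 to 10.86 to between 12.21 and 12.29 (adjusted p = 4.94e-06), and the glucose sensor SNF3 rose by 1.12 ± 0.31. Of 16 glycolytic genes, PDC6, a minor pyruvate decarboxylase, was the 1 that rose (2.90 ± 0.46) and none fell, in this fit and in the stricter one. The glycolysis median was -0.26, or -0.48 with centring and -0.01 with quantile normalization.

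**Figure D3:**
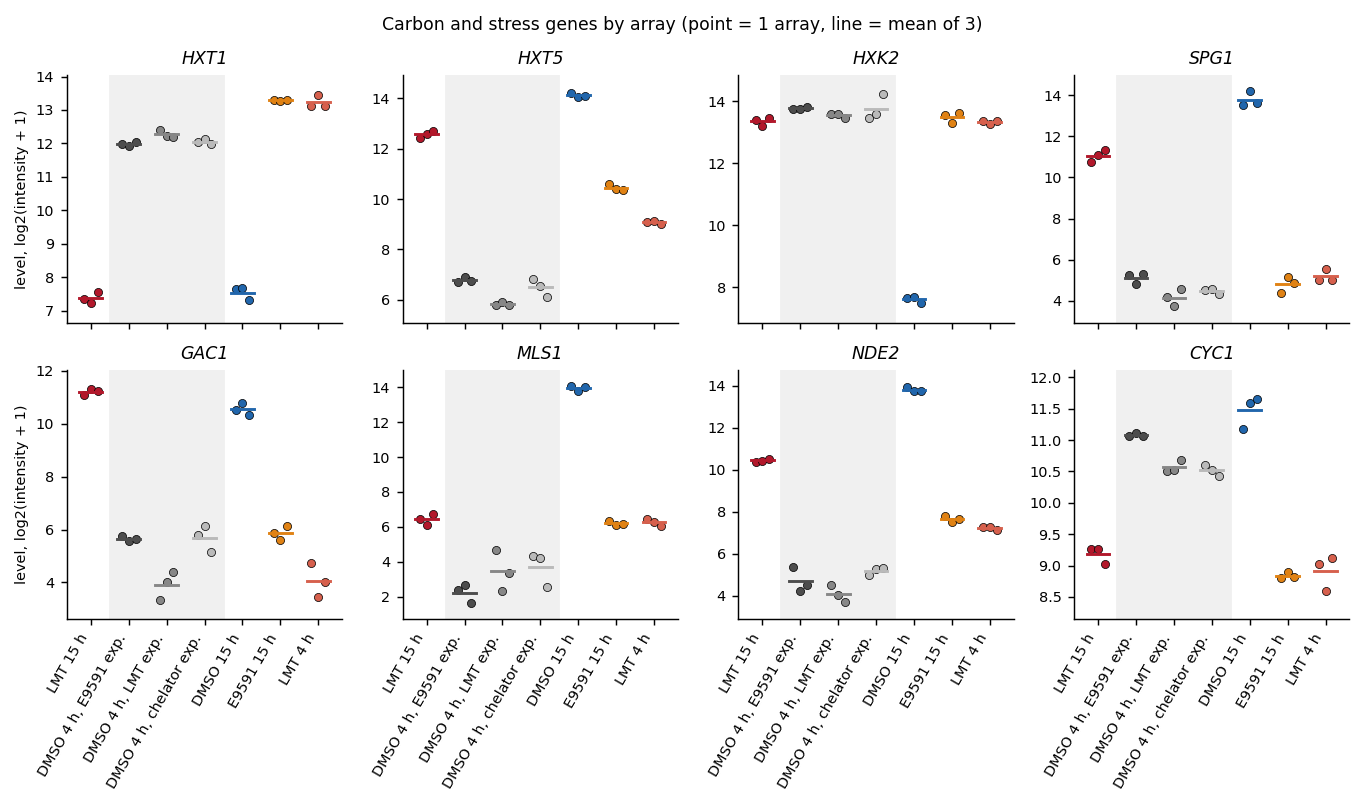
Levels as log2(intensity + 1) of 8 genes of carbon use and respiration, with 1 point per array and a line at the mean of each group of 3, the 3 DMSO 4 h groups shaded. HXT1 is low under LMT at 15 h and in 15 h DMSO cultures only, and HXK2 is low in 15 h DMSO cultures only. SPG1 and HXT5 are highest under LMT at 15 h and in 15 h DMSO cultures. HXT5 also lies above the 4 h DMSO groups with E9591 at 15 h and with LMT at 4 h.

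Genes for growth on acetate and fatty acids rose, mostly from a low level to a moderate one. Of 17 genes of the glyoxylate cycle and gluconeogenesis, 11 rose and none fell (13 and 0 in the stricter fit), with a median of 2.15. Their median in 15 h DMSO cultures, against the same 4 h arrays, was 6.20. PCK1, the phosphoenolpyruvate carboxykinase of gluconeogenesis, read 9.65, 9.77 and 9.77 against 6.44, 7.30 and 7.97, a rise of 2.39 ± 0.40, and averaged 14.03 in the 15 h DMSO cultures. ICL1, isocitrate lyase, read 9.01, 9.13 and 8.90 against 7.65, 7.94 and 8.07, a rise of 1.15 ± 0.28, and averaged 13.79 in the 15 h DMSO cultures. These enzymes thus lay between the growing and the 15 h DMSO cultures.

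MLS1, malate synthase, had LMT values of 6.11 to 6.74 above a DMSO range of 1.64 to 4.69, with 7 of the 9 DMSO arrays under the floor, but was not called (3.32 ± 1.30, adjusted p = 0.0637). FBP1, fructose-1,6-bisphosphatase, was not called either (1.57 ± 0.64, adjusted p = 0.0721). ADH2, the alcohol dehydrogenase that consumes ethanol, differed by 0.28 ± 0.30 (adjusted p = 0.495), against a mean of 13.24 in 15 h DMSO cultures and an LMT level of 7.92 to 7.96. MDH2, cytosolic malate dehydrogenase, rose by 2.15 ± 0.24 and ACS1, an acetyl-CoA synthetase, by 1.68 ± 0.23. The activators ADR1 and CAT8, picked after their values were seen, rose by 4.39 ± 0.72 and 3.13 ± 0.35. Of 11 beta-oxidation genes, 10 rose and none fell (8 in the stricter fit), with a median of 1.47; POT1, the peroxisomal thiolase, rose by 3.82 ± 0.57 from a level under the floor on 7 of the 9 DMSO arrays.

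In the mitochondria, the rise was spread over the respiratory chain but small. Of 24 respiratory chain genes, 13 rose and 1 fell (4 and 1 in the stricter fit), with a median of 0.66. NDE2, an outward-facing NADH dehydrogenase outside that list, read 10.38, 10.41 and 10.52 against 3.70, 4.52 and 5.36, with 3 DMSO arrays under the floor. It rose by 5.79 ± 0.62 (adjusted p = 2.29e-05). NDI1, the inward-facing one, read 11.14, 11.25 and 11.14 against 8.34, 9.33 and 9.77, a rise of 2.04 ± 0.39. CYT1, cytochrome c1, rose by 2.15 ± 0.43. CYC1, the main cytochrome c of aerobic cells, was the 1 member that fell: it read 9.26, 9.26 and 9.03 against 10.42, 10.61 and 11.11, a difference of -1.54 ± 0.23 (adjusted p = 2.42e-04). Its mean was 11.47 in the 15 h DMSO cultures, 8.84 with E9591 at 15 h and 8.92 with LMT at 4 h, so that the means of these compound-treated groups lay below that of every DMSO group.

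Of 12 ATP synthase genes, 3 rose, near the 21.5% of all genes, and of 10 genes of the tricarboxylic acid cycle, 4 rose. None fell in either list (0 and 2 rising in the stricter fit). LSC2, a subunit of succinyl-CoA ligase, rose by 1.98 ± 0.28 and MDH1, mitochondrial malate dehydrogenase, by 1.15 ± 0.25. Of 55 mitochondrial ribosomal proteins, 11 rose, also near that share, and none fell (1 rose in the stricter fit). The count that rose was 4 without the E9591 experiment's DMSO arrays and 35 without those of the LMT experiment. The medians were 0.51, 0.17 and 0.36 in these 3 lists. With centring, the tricarboxylic acid cycle median was -0.04, no ATP synthase gene was called, and 8 mitochondrial ribosomal proteins rose and 1 fell.

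YOR387C on chromosome XV had the largest fitted rise: 12.53, 12.53 and 12.35 under LMT against a lowest, median and highest DMSO value of 3.0, 4.71 and 5.44, a difference of 7.84 ± 0.91 (adjusted p = 3.95e-05). VEL1 on chromosome VII read 11.57, 11.42 and 11.03 against 4.48, 5.08 and 5.45, a difference of 6.37 ± 0.49 (adjusted p = 2.16e-06). YOR387C and VEL1 are closely related genes of unknown function, both known for their induction in zinc-depleted cells, and neither is in the list of zinc genes. In 15 h DMSO cultures their means were 8.34 and 6.94, below the LMT level. With E9591 at 15 h the means were 4.63 and 5.08, and with LMT at 4 h they were 5.43 and 5.21.

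Of 8 genes that zinc shortage controls, 6 rose and none fell in the main fit, and 1 rose in the stricter fit. Their median was 0.89. In 15 h DMSO cultures it was 1.36 against the same 4 h arrays, and with E9591 at 15 h it was -0.38. Compared directly with the 15 h DMSO cultures, 2 members were higher under LMT and 4 were lower. ADH4, an alcohol dehydrogenase made under zinc shortage, read 13.79, 13.60 and 13.99 against 10.94, 11.31 and 11.53, a rise of 2.55 ± 0.24 (adjusted p = 6.85e-06), and was the 1 gene called by both fits. ZAP1, the zinc-sensing activator, rose by 1.87 ± 0.32 and lost its call in the stricter fit, as did ZRT3, the vacuolar zinc exporter (0.84 ± 0.14). ZRT1, the high-affinity zinc transporter of the plasma membrane, differed by 0.11 ± 0.37 (adjusted p = 0.844). ZPS1 was not called (1.63 ± 0.75, adjusted p = 0.111), and its DMSO values ran from 10.58 to 13.73 with the LMT experiment lowest. The members of the list thus differed in whether and how far they rose.

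BIO5 on chromosome XIV, the transporter of a biotin precursor, read 11.67, 11.66 and 11.76 under LMT against 4.90, 5.81 and 6.49, a difference of 5.98 ± 0.65 (adjusted p = 2.36e-05). Its neighbours BIO3 and BIO4, which encode later steps of biotin synthesis and were looked up after BIO5 was seen, rose by 3.86 ± 0.26 and 3.30 ± 0.25. BIO3 read 12.50, 12.47 and 12.78 against 8.50, 8.70 and 8.92. VHT1, the biotin importer, read 13.14, 13.04 and 13.18 against 11.28, 11.55 and 11.69, a rise of 1.59 ± 0.17. BIO2, biotin synthase, which carries iron-sulfur clusters, rose by 0.77 ± 0.21, a call that was lost with centring, in the stricter fit and without the BIPR and PHEN experiment's DMSO arrays. BIO5 was named by a rule that asks for 3 LMT arrays above all 9 DMSO arrays. BIO3, BIO4, VHT1 and BIO2 also lay above them, as did 34.1% of all tested genes. The mean of BIO5 was 6.16 in 15 h DMSO cultures, 7.04 with E9591 at 15 h and 7.18 with LMT at 4 h. In the same order BIO3 had means of 8.45, 9.53 and 9.68, and BIO4 had 7.41, 8.56 and 8.75. VHT1 was not particular to LMT at 15 h. Its means were 11.05, 12.85 and 12.92 in these groups, against 13.12 under LMT at 15 h.

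**Figure D4:**
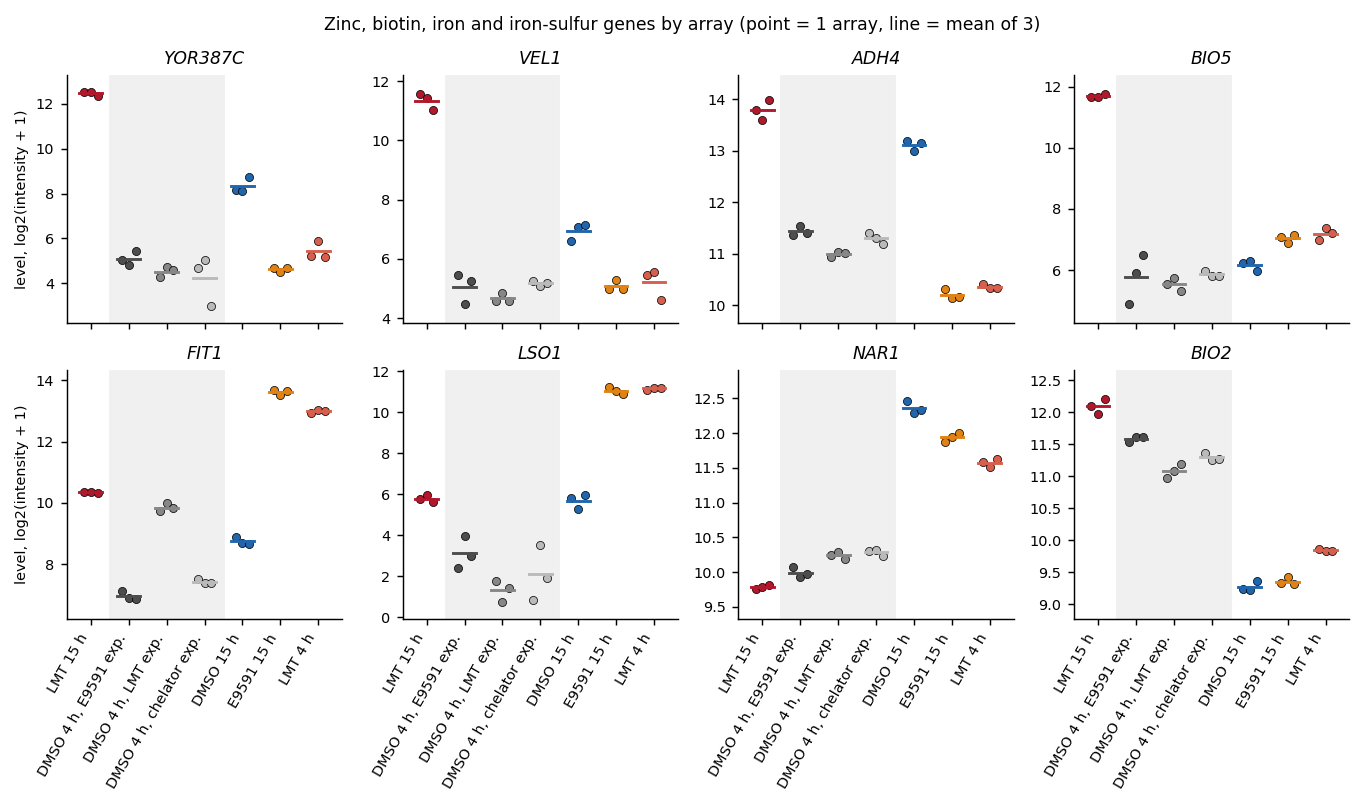
Levels as log2(intensity + 1) of 8 genes of metal and biotin metabolism, 1 point per array, a line at the mean of each group of 3, the 3 DMSO 4 h groups shaded. YOR387C, VEL1 and BIO5 are highest under LMT at 15 h, whereas FIT1 and LSO1 are highest with E9591 at 15 h and LMT at 4 h.

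The iron regulon, the genes that Aft1 and Aft2 switch on when iron is short, moved in both directions. Of 30 genes, 12 rose and 3 fell, where 21.5% of all tested genes rose and 13.9% fell. In the stricter fit 3 rose and 1 fell. The median was 0.51, and 0.81, 0.17 and 0.43 against the DMSO arrays of the E9591, LMT and BIPR and PHEN experiments. FIT1, a cell wall protein that retains iron-bound siderophores, read 10.34, 10.35 and 10.33 under LMT. Its DMSO values were 6.86 to 7.12 in the E9591 experiment, 9.74 to 9.99 in the LMT experiment and 7.38 to 7.51 in the BIPR and PHEN experiment. The call (2.26 ± 0.72, adjusted p = 0.0277) was lost in the stricter fit (adjusted p = 0.219) and without the DMSO arrays of either the E9591 or the BIPR and PHEN experiment.

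FET3, the multicopper oxidase of high-affinity iron uptake, read 13.34, 13.27 and 13.28 within a DMSO range of 13.06 to 13.89 (difference -0.09, adjusted p = 0.844). LSO1 was under the floor on all 9 DMSO arrays and was at least 2.59-fold higher under LMT (adjusted p = 0.048), a call lost in 9 of 24 alternatives. FRE4, a reductase of siderophore-bound iron, fell by 2.05 on the log2 scale (adjusted p = 0.00312). ISU2, a scaffold on which iron-sulfur clusters are built, fell by 1.23 on the log2 scale and lost its call in the stricter fit. ECM4, a glutathione transferase, rose by 1.49 ± 0.35.

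Iron-sulfur proteins fell more often than they rose. Of 19 genes, 10 fell and 4 rose (4 and 1 in the stricter fit), with a median of -0.78. LEU1, the isopropylmalate isomerase of leucine synthesis, read 11.20, 11.24 and 11.26 against 12.63, 13.08 and 13.27, a difference of -1.79 ± 0.19 (adjusted p = 1.64e-05). DPH2, which makes the diphthamide residue of elongation factor 2, fell by 1.67 on the log2 scale, MET5, a sulfite reductase subunit, by 1.63 on the log2 scale, and ILV3, of branched-chain amino acid synthesis, by 1.21 on the log2 scale. SDH2 and RIP1, subunits of the respiratory chain, rose by 1.32 ± 0.32 and 1.03 ± 0.27, and both lost their call in the stricter fit. The members that fell thus included enzymes of amino acid synthesis, and those that rose included subunits of respiratory complexes.

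Of 8 genes that build iron-sulfur proteins in the cytosol, 2 fell and none rose. Of 16 that build them in mitochondria, 4 fell and 2 rose. None of these calls held in the stricter fit. For these lists and the copper genes below, the shares over all tested genes were 21.5% rising and 13.9% falling. NAR1, of the cytosolic machinery, read 9.76, 9.78 and 9.81 against 9.93, 10.23 and 10.32 (difference -0.39, adjusted p = 0.0659). Its means were 12.37 in 15 h DMSO cultures, 11.94 with E9591 at 15 h and 11.58 with LMT at 4 h. LMT at 15 h was therefore the 1 group of these that had no higher level than the 4 h DMSO cultures. Of 8 copper genes, CRS5, a metallothionein, rose by 2.52 ± 0.21 (adjusted p = 3.78e-06), and CCS1, the copper chaperone of superoxide dismutase, was the 1 that fell.

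Most genes for the use of poor nitrogen sources rose. Of 19 nitrogen catabolite genes, 15 rose and none fell (13 and 0 in the stricter fit), with a median of 1.33. Against the same 4 h arrays, the median was 1.30 in 15 h DMSO cultures and 1.92 with E9591 at 15 h. Compared directly with E9591 at 15 h, 5 members were higher under LMT and 13 were lower. PUT1, proline oxidase, read 10.79, 11.16 and 11.25 against 6.45, 7.07 and 7.31, a rise of 4.08 ± 0.41 (adjusted p = 1.24e-05). DAL80, a repressor of the same genes, rose by 4.22 ± 0.67 and CAR2, of arginine breakdown, by 3.16 ± 0.27. GAP1, the general amino acid permease, had LMT values above all 9 DMSO values but was not called (1.33, adjusted p = 0.105). Of 11 amino acid permeases, 5 rose and none fell (3 in the stricter fit). BAP2, a permease for branched-chain amino acids, read 10.32, 10.56 and 10.42 against 5.36, 6.03 and 6.36, a rise of 4.48 ± 0.43.

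Of 20 genes of amino acid synthesis, 9 fell, none rose and 11 were not called (5 fell in the stricter fit), with a median of -0.66. ARG3 on chromosome X, ornithine carbamoyltransferase, read 10.67, 10.52 and 10.60 against 12.46, 12.66 and 12.77, a difference of -2.05 ± 0.15 (adjusted p = 2.16e-06). HIS1 fell by 1.59 on the log2 scale and HIS3 by 1.33 on the log2 scale, both of histidine synthesis. LEU9, a minor isopropylmalate synthase outside that list, was among the largest falls, from a DMSO median of 11.27 to between 9.04 and 9.11 under LMT. ARG1 shows that the fall was not shared by all: its difference was -0.35 (adjusted p = 0.499).

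Genes of RNA polymerase I and most genes of ribosome assembly fell. All 7 RNA polymerase I genes tested fell (5 in the stricter fit), with a median of -1.44. RPA12 on chromosome X, a small subunit of that enzyme, read 9.29, 9.09 and 9.09 against 10.73, 11.07 and 11.65, a difference of -2.02 ± 0.28 (adjusted p = 1.43e-04). RPA135 and RPA190, the large subunits, fell by 1.47 and by 1.07 on the log2 scale. Of 38 ribosome assembly genes, 30 fell and none rose (11 and 0 in the stricter fit), with a median of -0.93. CGR1, a nucleolar gene of rRNA processing outside that list, had LMT values of 7.96 to 8.35 below a DMSO range of 10.09 to 11.04. Its difference was -2.32 ± 0.30. NOP14, a factor of the small subunit, fell by 1.49 on the log2 scale and RRP5 by 1.30 on the log2 scale.

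NOP1, the methyltransferase of box C/D RNPs, read 12.80, 12.69 and 12.89 against 13.41, 13.57 and 14.07 (-0.85 ± 0.29, adjusted p = 0.0359). That call was lost with centring, in the stricter fit, without the E9591 experiment's DMSO arrays and without LMT replicate B. Of 122 cytosolic ribosomal proteins, 21 fell, near the 13.9% of all genes, and the others were not called (9 fell in the stricter fit), with a median of -0.49, and 68 fell when the LMT experiment's DMSO arrays were left out. RPS28B and RPL22B, each the product of 1 gene of a duplicated pair, fell most, RPS28B to between 11.43 and 11.62 from a DMSO range of 12.98 to 13.50. RPL3, a core protein of the large subunit, read 14.00, 13.80 and 14.25 against 14.00, 14.21 and 15.13 and was not called (adjusted p = 0.679). The 15.13 came from DMSO replicate C of the BIPR and PHEN experiment, which was also the highest of the 9 arrays for the glycolytic gene TDH3, at 14.97 against 13.65 to 14.54 on the others. Of 32 proteasome genes none was called, by either fit, while centring called 1 lower and quantile normalization 1 higher. A mean per group over all 30 arrays called 4 higher and 11 lower.

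**Figure D5:**
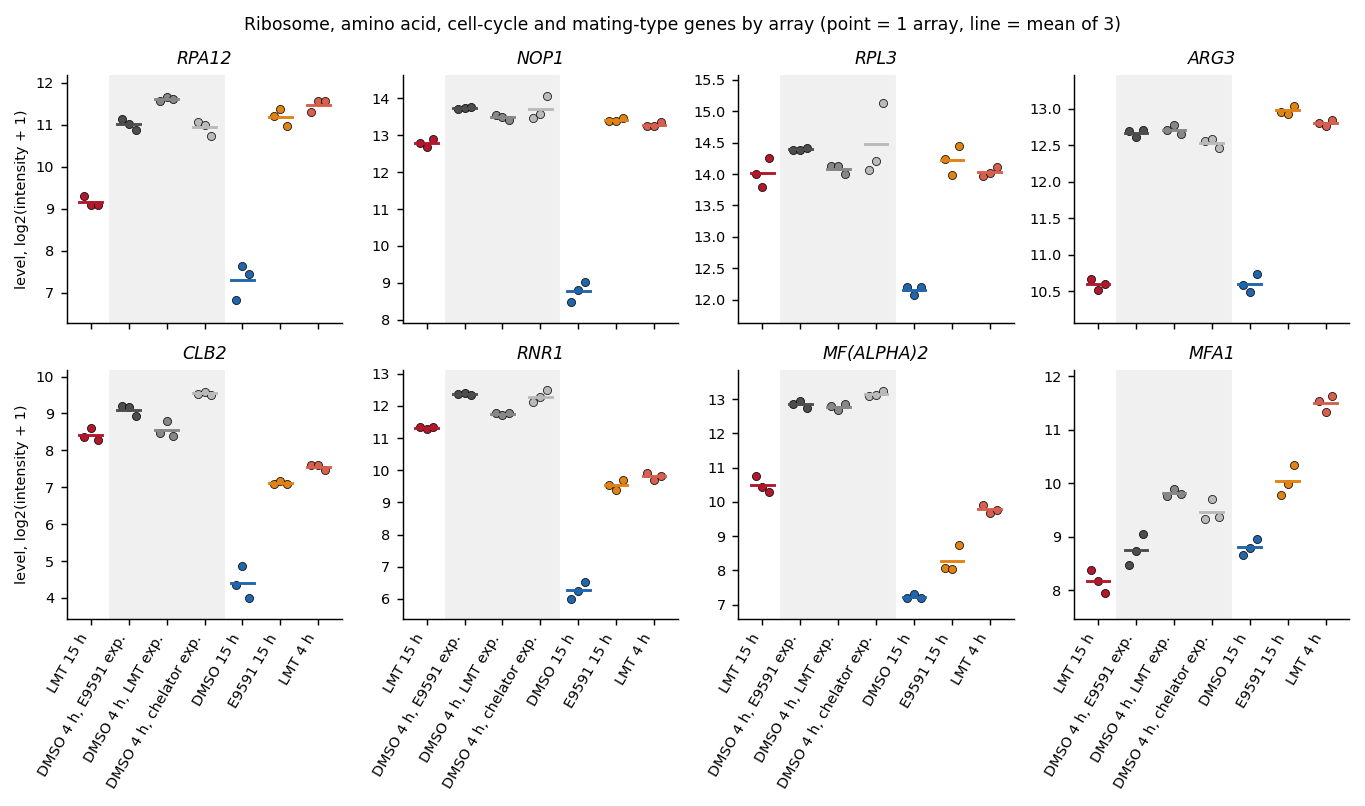
Levels as log2(intensity + 1) of 8 genes of ribosome synthesis, arginine synthesis, the cell cycle and mating type, 1 point per array, a line at the mean of each group of 3, the 3 DMSO 4 h groups shaded. RPA12 under LMT at 15 h lies between the 4 h DMSO cultures and the 15 h DMSO cultures, and RNR1 and MF(ALPHA)2 are higher under LMT at 15 h than in the other 15 h groups.

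Of 21 genes of the G1 to S transition and replication, 6 rose and 1 fell (1 and 0 in the stricter fit), a share of calls near the 35.3% of all genes, with a median of 0.32, while 2 rose and 3 fell under quantile normalization. Their medians against the same arrays were -1.92 in 15 h DMSO cultures, -1.08 with E9591 at 15 h and -0.84 with LMT at 4 h. RNR1, the large subunit of ribonucleotide reductase, read 11.33, 11.28 and 11.35 against 11.73, 12.27 and 12.48 (-0.82 ± 0.24, adjusted p = 0.0159), a call lost in the stricter fit and without the E9591 experiment's DMSO arrays. It averaged 6.26 in 15 h DMSO cultures. PRI2, a primase subunit, rose by 1.04 ± 0.16. None of 7 G2 to M genes was called, though 2 fell with centring and 3 with quantile normalization. CLB2, a mitotic cyclin, read 8.36, 8.60 and 8.28 against 8.40, 9.17 and 9.59 (adjusted p = 0.148). Of 9 histone genes 1 fell, of 7 genes of daughter-cell separation 2 fell, and of 7 genes of ribonucleotide reductase and the damage response 1 fell. Among all tested genes 13.9% fell. None rose in these 3 lists in the main fit, but members rose in several alternatives. Under quantile normalization 1 histone gene and 1 gene of daughter-cell separation rose. With a mean per group over all 30 arrays, 2, 1 and 3 genes of the 3 lists rose. None of the 3 lists had a call in the stricter fit.

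Mating genes fell in part, where 13.9% of all tested genes fell and 21.5% rose. Of 5 alpha-cell genes, 3 fell and none rose (2 and 0 in the stricter fit). MF(ALPHA)2, a precursor of the alpha pheromone, read 10.74, 10.44 and 10.29 against 12.67, 12.87 and 13.24, a difference of -2.43 ± 0.26 (adjusted p = 1.91e-05). It averaged 7.23 in 15 h DMSO cultures, 8.28 with E9591 at 15 h and 9.78 with LMT at 4 h. STE3, the receptor for a-factor, fell by 1.18 on the log2 scale. Of 7 a-cell genes, 2 fell (1 in the stricter fit): STE2, the receptor for alpha-factor, read 6.96, 7.13 and 6.91 against 8.52, 8.69 and 9.78, whereas its mean with LMT at 4 h was 11.04. MFA1, a precursor of a-factor, was the other, and its call was lost in 8 alternatives. Of 7 haploid-specific genes 1 rose and 1 fell (0 in the stricter fit). HO, the mating-type endonuclease gene, differed by -0.29 from the 4 h arrays (adjusted p = 0.241) and averaged 7.01 in 15 h DMSO cultures against 9.93 to 10.15 under LMT. Of 10 genes of meiosis and sporulation, 5 rose and none fell (6 and 0 in the stricter fit, but 3 and 2 under quantile normalization), SPR3 by 3.15 ± 0.38 and SPO11 by 2.02 ± 0.29, while IME1, the switch of meiotic entry, differed by -0.26 (adjusted p = 0.388).

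The remaining lists changed in part. Their counts have to be read beside the 21.5% of all tested genes that rose and the 13.9% that fell. Of 15 redox defence genes, 6 rose and 1 fell (4 and 1 in the stricter fit): TSA2 and PRX1, both peroxiredoxins, rose by 2.71 ± 0.41 and 1.83 ± 0.26, and GPX2, a glutathione peroxidase, fell by 2.44 on the log2 scale. Of 12 chaperone genes 2 rose, near the share of all genes (0 in the stricter fit). Of 24 ergosterol genes, 9 fell (3 in the stricter fit), ERG7 by 1.33 and ERG11 by 1.11 on the log2 scale. Of 13 hypoxic genes, 3 rose and 4 fell (2 and 1): COX5B, the hypoxic cytochrome oxidase subunit, rose by 1.69 ± 0.21 and AAC3, the anaerobic ADP/ATP carrier, fell by 2.00 on the log2 scale. Of 14 thiamine genes, 7 rose and 2 fell (3 and 0), with THI4 up by 1.58 ± 0.23. Of 11 phosphate genes 3 fell (2), among them VTC3, a vacuolar polyphosphate gene, by 1.21 on the log2 scale. Of 8 drug efflux genes 3 rose (2), with the polyamine exporter TPO1 up by 1.41 ± 0.21, and PDR5, the main efflux pump, was not called (-0.57, adjusted p = 0.159).

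The 15 largest falls were HXT1, TDA6, YDR222W, UTR2, GPX2, MF(ALPHA)2, CGR1, YMR230W-A, YMR317W, LEU9, YLR264C-A, PRM9, FRE4, ARG3 and RPA12. They ran from -4.73 to -2.02 and were named among genes whose 3 LMT arrays lay below all 9 DMSO arrays. UTR2 on chromosome V, a cell wall chitin transglycosylase, read 10.87, 10.69 and 10.59 against 13.07, 13.23 and 13.72, a difference of -2.55 ± 0.28 (adjusted p = 2.65e-05), and averaged 6.07 in 15 h DMSO cultures. TDA6 fell by 2.75, YDR222W by 2.68, YMR230W-A by 2.32 and PRM9 by 2.07 on the log2 scale. The DMSO groups of YMR317W were apart: 5.82 to 6.14 in the E9591 experiment, 8.70 to 8.77 in the LMT experiment and 7.02 to 7.59 in the BIPR and PHEN experiment. Its call (-2.28 ± 0.71, adjusted p = 0.024) was lost in the stricter fit and without the BIPR and PHEN experiment's DMSO arrays. YLR264C-A (-2.08 ± 0.51) was lost in the stricter fit (adjusted p = 0.086).

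The tests of what separates LMT from the other 15 h cultures use 3 arrays a side, with 1 spread estimated over all 30 arrays. Against the 15 h DMSO cultures of the same experiment, 4548 genes were called (83.8%), 2274 in each direction (41.9%), and 2011 (37%) were called with a 2-fold difference. The 5 genes most above these cultures were HXK2 (5.74 ± 0.13), BIO5 (5.54 ± 0.23), HXT4 (5.43 ± 0.15), AAH1, an adenine deaminase (5.35 ± 0.10), and GAS1, a cell wall glucanosyltransferase (5.24 ± 0.10). The 5 with the largest fitted differences below were MLS1 (-7.50 ± 0.43), FBP1 (-7.38 ± 0.33), YKL107W (-6.87 ± 0.33), CTA1, the peroxisomal catalase (-6.78 ± 0.23), and CSM4, a meiotic gene. CSM4 was under the floor on all 3 LMT arrays and was at least 60.9-fold lower (adjusted p = 1.89e-08), so its place among the 5 is not measured. All 17 glyoxylate and gluconeogenesis genes and all 11 beta-oxidation genes were lower than in 15 h DMSO cultures, and 26 of 28 stress genes were. Cytosolic ribosomal proteins were higher in 120 of 122 cases and ribosome assembly genes in 36 of 38. GAC1 was not called apart from those cultures (0.66 ± 0.35, adjusted p = 0.0847), and YOR387C and VEL1 were higher by 4.13 ± 0.36 and 4.40 ± 0.24.

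Against E9591 at 15 h, at 0.053 µM and from the same experiment, 4242 genes were called (78.1%), 2145 higher (39.5%) and 2097 lower (38.6%), and 1467 (27%) were called with a 2-fold difference. Each compound was used at its own IC50, so the doses differ. The 5 genes with the largest fitted differences above E9591 were YOR387C (7.84 ± 0.36), VEL1 (6.26 ± 0.24), SPG1 (6.24 ± 0.25), FMP48 (5.37 ± 0.16) and YFL012W. YFL012W was under the floor on all 3 E9591 arrays and was at least 16.3-fold higher (adjusted p = 1.54e-12), so its place is not measured either. The 5 most below were HXT1 (-5.92 ± 0.09), LSO1 (-5.26 ± 0.42), VBA3, a vacuolar amino acid transporter measured by a probe set that related genes can share (-4.91 ± 0.30), CHA1, a serine and threonine deaminase (-4.43 ± 0.16), and PDC5, a pyruvate decarboxylase (-3.57 ± 0.15). Stress genes were higher than with E9591 in 25 of 28 cases and lower in 2. Trehalose and glycogen genes were higher in 17 of 18 cases, respiratory chain genes in 21 of 24 and genes of the G1 to S transition in 20 of 21.

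Lower than with E9591 were 25 of 30 iron regulon genes, all 8 genes of cytosolic iron-sulfur assembly, all 38 ribosome assembly genes and 17 of 20 genes of amino acid synthesis. FIT1 was lower by 3.28 on the log2 scale (-3.28 ± 0.07, adjusted p = 8.01e-21) and NAR1 showed -2.15 ± 0.06. HXK2 was not called apart (-0.13 ± 0.13, adjusted p = 0.362), nor were ICL1 (-0.18 ± 0.11, adjusted p = 0.124) and MLS1 (0.23 ± 0.43, adjusted p = 0.633). The glyoxylate and gluconeogenesis list was divided, with 5 higher and 6 lower. None of the named calls in these comparisons was lost in any alternative tried.

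The 4 h LMT cultures received the same 2.6 µM dose for the shorter time, in another experiment, and share the 9 DMSO arrays as a reference, so their values are given beside those at 15 h without a test. The iron regulon median was 1.16 at 4 h and 0.51 at 15 h, and that of cytosolic iron-sulfur assembly was 1.13 and -0.40. Stress genes had medians of 0.75 and 3.08, trehalose and glycogen genes -0.70 and 1.61, respiratory chain genes -0.61 and 0.66, and zinc genes -0.11 and 0.89. Amino acid synthesis had medians of 0.12 and -0.66, and RNA polymerase I genes -0.03 and -1.44. In each of these lists the sign of the median or its size thus differed between the times. The times also differ in growth stage and experiment. The 4 h medians can depend on the reference as well. The DMSO cultures of the LMT experiment, the controls of the 4 h LMT cultures, stood farthest from the others. GAC1 with LMT at 4 h differed by -1.02 from the 9 DMSO arrays and by 0.16 from those controls alone. For HSP12 these values were 5.21 and 5.18. List medians against those controls alone are not given here.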

How the data were processed

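Biotin-labelled cRNA from total RNA was hybridised to 1 Affymetrix yeast array per culture, per the labels' protocols. The authors deposited intensity values, 1 colour per array on a linear scale, with a trimmed mean of 1000.4 to 1000.8 on each array. Which software summarised the probes, and with what background correction, is not given in the sources used here. Arrays brought to 1 mean can all shift slightly where abundant messages change.

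Of 10928 probe sets, 5498 have 1 S. cerevisiae gene in the platform annotation and cover 5449 genes. For 47 genes with several probe sets, the brightest was used. Another 3683 probe sets are unnamed, 1 has several genes, and 1746 are for another species. Symbols were updated for 12 genes from the table of assembly R64. The floor was the 95th percentile of the 1746 probe sets, an intensity of 11.2 to 34.5. Genes above it on at least 3 of 30 arrays were tested: 5429, with 20 left out. Of these, 115 have a probe set that related genes can share.

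On log2(intensity + 1), limma 3.58.1 with statmod 1.5.0 in R 4.3.3 compared LMT at 15 h with the 9 DMSO arrays, with the experiment as a random block (correlation 0.711, 10 residual degrees of freedom, prior 3.13). The contrasts with 15 h DMSO and with E9591 used a mean per group over 30 arrays (20 degrees of freedom, prior 3.16). A group under the floor on all its arrays gave an "at least" fold. Genes named are the 15 largest rises and falls, or 5 in each other contrast, among called genes whose groups did not overlap, and members of 40 gene lists; those chosen otherwise are marked. The members and lists were chosen with earlier results of these data known. Fits were tested on simulated data. The number of arrays limits the precision. In the main fit p-values rest on the spread within and between experiments, and in the stricter fit on that between the 3 DMSO group means. In the 15 h contrasts they rest on the spread between cultures of a group and hold none between experiments. The 15 h LMT cultures come from 1 experiment. Alternatives were other scalings, a pseudocount of 16, no filter, array weights, other blocks, and leaving out arrays and experiments. Sequences were not used here. Tables were made with Python 3.11.15, pandas 2.3.3 and numpy 2.4.6, and figures with matplotlib 3.10.9.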

Additional observations from a re-analysis of the deposited data

Results flagged for a closer look

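Dixon's test for a single distant value, which chance alone passes in about 1 of 20 groups, picked out 2 of the named genes among the 9 DMSO arrays. For YOR387C the ratio of the gap to the whole range was 0.531, because replicate C of the BIPR and PHEN experiment read 3.0 and the next lowest array 4.29. For UTR2 it was 0.509, because the same array read 13.72 and the next highest 13.39. Both genes kept their calls without that array.

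For some of the largest falls, every array of another treated group lay on the opposite side of the 9 DMSO arrays. The difference from LMT at 4 h was not tested here. HXT1 was 1.13 higher than the 9 DMSO arrays with LMT at 4 h and 1.19 higher with E9591 at 15 h. YDR222W was 1.42 higher and YMR230W-A 1.27 higher with LMT at 4 h. ARG3 was 0.34 higher with E9591 at 15 h. Set directly against E9591 at 15 h, LMT at 15 h differed by -5.92 ± 0.09 for HXT1 and by -2.38 ± 0.06 for ARG3 (limma, adjusted p = 8.53e-24 and 6.95e-20).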

How the results depend on the processing

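For LMT at 15 h against the 9 DMSO arrays, quantile normalization gave 1181 genes lower and 485 at least 2-fold lower, and centring gave 467 at least 2-fold lower. Array weights gave 2353 higher and 1619 lower, no block of experiment 2004 and 1358, and all 30 arrays 2508 and 1860. The group means as units gave 629 and 207, with 179 at least 2-fold lower. Without the LMT experiment's DMSO arrays the counts were 2092 and 1421. With the replicate letter as a block they were 1083 and 676, and against 15 h DMSO and E9591 at 15 h they were 2276 and 2282, and 2147 and 2099. The letters carry no stated pairing: deviations of same-lettered arrays correlated between -0.16 and 0.184 over 18 array pairs, and those of LMT with the other 15 h groups between -0.091 and 0.334. Of 15 matches of an LMT array to another group, 7 were closest to their own letter. Other alternatives kept these counts within 1.5 times. Leaving out 1 array gave 1038 to 1196 higher, 658 to 739 lower, 658 to 720 at least 2-fold higher and 256 to 290 at least 2-fold lower. Under quantile normalization SPS1 (-0.10), THI2 (-0.16) and UGA4 (-0.05) changed sign. Over 18600 values of named and listed genes under the alternatives, 16774 kept direction and call, 622 lost the call, 1201 gained it and 3 reversed. Causes were not tested. Array number and the spread between the DMSO experiments limit what small differences can show.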
